A study of Homo sapiens
Mus musculus with 24 samples.

Results

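The genes described here are 6 human genes of epithelial and neutrophil defence, S100A8, S100A9, S100A7, PI3, SLPI and LCN2, read from tumors of the human breast cancer line MDA-MB-231 grown in mice. They were matched by gene symbol, and all 6 were present among the 18880 genes of the human table. The set was drawn up with MC + Chemo and CTRL values of these tumors in view, where S100A8 and PI3 were among the genes called different. That contrast is therefore given below as values without a test.

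S100A8 and S100A9 pair to form calprotectin, a calcium-binding protein that starves microbes of zinc and manganese and signals through TLR4 and AGER. S100A7 (psoriasin) is an antimicrobial S100 protein of inflamed skin and of some breast carcinomas. PI3 (elafin) and SLPI are secreted inhibitors of neutrophil elastase, and LCN2 (lipocalin 2) binds the iron carriers that bacteria release. Such genes are known to be switched on together in epithelia by interleukin 1, interleukin 17 and NF-kB signals, and calprotectin is also the most abundant cytosolic protein of neutrophils.

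Female B6/Rag1KO mice, which lack mature T and B cells but keep neutrophils and macrophages, were injected under the skin of the neck with 2500000 MDA-MB-231 cells at 14 weeks of age. When tumors exceeded 200 mm3, mice made obese on a high-fat diet were assigned to 4 groups. CTRL mice received saline on the high-fat diet (4 tumors). Chemo mice received weekly doxorubicin at 2 mg/kg and cyclophosphamide at 100 mg/kg (5 tumors). MC mice ate the high-fat diet with moringa seed concentrate at 0.6% (5 tumors), and MC + Chemo mice received both (6 tumors), for 4 weeks. A further group, Lean, carried the same cells on the lean diet without treatment (4 tumors). Every group thus shares the Rag1 deletion and a single injected line, and each tumor carries its group and mouse number as its name. For MC + Chemo 5 the title gives MC + Chemo and another label MC, and the title was followed.

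The 24 libraries held 7796231 to 17621273 human and 3664056 to 9892470 murine read counts. Each tumor came from a different mouse, so p-values cover the spread between mice. In a piece of whole tumor, fewer cells that make a transcript and less of it per cell cannot be told apart. Two-sided tests of all genes were done with edgeR, and a gene was called where its adjusted p was below 0.05, its mean normalized count above 30 and its fold change above 1.5. Of the 6 genes, all passed the low-count filter, and S100A7 had a mean too low to be called whatever its p-value.

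CTRL 17 and CTRL 44 stood apart from the other 22 tumors before any comparison. They were the lowest 2 tumors for 6 of 6 genes, beside 10.4% of the 12673 human genes with a mean normalized count over 30. This is a description, since CTRL values were in view when the genes were chosen. MDA-MB-231 cells are known for much vimentin and little or no E-cadherin. CDH1, the gene of E-cadherin, had a normalized count of 2.73 in CTRL 17 and 312 in CTRL 44, against 633 to 4472 in the others. VIM, the gene of vimentin, stood at 71918 and 50209 in this pair, against 4402 to 24619 in the others. In CDH1 the tumors other than CTRL 17 thus went against what is known of the labelled line. For the 6 genes, comparisons with CTRL below therefore also give edgeR fold changes without CTRL 17 and CTRL 44. This choice was made after the values were seen. DESeq2 results and lists of other genes rest on all CTRL tumors, including this pair.

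Calprotectin transcripts were present in 22 of the tumors and nearly missing from this pair. The normalized count of S100A8 was 0.911 in CTRL 17, 58.5 in CTRL 31, 0 in CTRL 44 and 25.3 in CTRL 70. The count of 0 allows up to 2.59 on this scale (3 reads, counting error only), and the value of CTRL 17 is a single read. CTRL was thus split into a pair without detectable S100A8 and a pair with a moderate level. In Chemo, S100A8 was 103 in Chemo 19, 95.2 in Chemo 30, 28.3 in Chemo 33, 189 in Chemo 34 and 99.3 in Chemo 67. In MC it was 10.8 in MC 6, 71.8 in MC 41, 41.3 in MC 42, 71.1 in MC 48 and 91.4 in MC 59. The Chemo tumors reached further up, but the groups overlapped through Chemo 33. In MC + Chemo, S100A8 ran from 92.7 to 674 with a median of 152, so the lowest MC + Chemo tumor lay above the highest of MC and of CTRL. The gap to MC was narrow, from 91.4 in MC 59 (67 reads) to 92.7 in MC + Chemo 25 (91 reads). It also depends on the group of MC + Chemo 5, which read 152. In Lean it was 68.7 in Lean 3, 66.9 in Lean 21, 4.02 in Lean 24 and 29.5 in Lean 54.

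S100A9, the partner of S100A8, followed the same order at the bottom but not at the top. Its normalized count was 0 in CTRL 17, 660.5 in CTRL 31, 1.73 in CTRL 44 and 190.1 in CTRL 70. In Chemo it was 345 in Chemo 19, 584 in Chemo 30, 355 in Chemo 33, 883 in Chemo 34 and 822 in Chemo 67. The highest CTRL tumor thus lay inside the Chemo range. In MC the count was 56.8 in MC 6, 588 in MC 41, 266 in MC 42, 436 in MC 48 and 463 in MC 59. MC + Chemo tumors ran from 349 to 1487 with a median of 526, below the Chemo median of 584. Lean tumors read 265 in Lean 3, 639 in Lean 21, 25.1 in Lean 24 and 323 in Lean 54, so every pair of groups overlapped for S100A9.

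S100A7 rested on few reads, which limits its precision. The normalized count was 0 in CTRL 17, 7.58 in CTRL 31, 0 in CTRL 44 and 3.51 in CTRL 70, with 7 reads behind the highest of these. In Chemo it was 16.1 in Chemo 19, 15.7 in Chemo 30, 7.91 in Chemo 33, 38.1 in Chemo 34 and 40.0 in Chemo 67. Every Chemo tumor was above every CTRL tumor, although Chemo 33 and CTRL 31 both rest on 7 reads and differ by less than counting error (exact Poisson 95% interval 2.81 to 14.4 reads). In MC it ran from 2.71 in MC 6 to 20.6 in MC 48, in MC + Chemo from 9.39 to 106 with a median of 25.7, and in Lean from 2.01 in Lean 24 to 10.5 in Lean 3. MC and Lean overlapped CTRL, and MC + Chemo did not.

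PI3 was the gene whose CTRL tumors overlapped none of the treated groups. Its normalized count was 1.82 in CTRL 17, 21.7 in CTRL 31, 9.50 in CTRL 44 and 22.4 in CTRL 70. It was 165 in Chemo 19, 49.3 in Chemo 30, 49.7 in Chemo 33, 80.6 in Chemo 34 and 34.3 in Chemo 67. In MC it was 29.8 in MC 6, 251 in MC 41, 77.7 in MC 42, 55.7 in MC 48 and 71.0 in MC 59. In all 3 treated groups the lowest tumor was above the highest CTRL tumor, with MC + Chemo at 58.7 to 199 around a median of 114. Lean tumors, at 38.2 in Lean 3, 18.96 in Lean 21, 16.1 in Lean 24 and 15.98 in Lean 54, overlapped CTRL.

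SLPI, the other elastase inhibitor, had no such gap. Its normalized count was 2.73 in CTRL 17, 717 in CTRL 31, 39.7 in CTRL 44 and 516 in CTRL 70. Chemo tumors ran from 484 in Chemo 67 to 1282 in Chemo 33, MC tumors from 154 in MC 6 to 984 in MC 59, and MC + Chemo tumors from 424 to 1880 with a median of 941. Lean tumors ran from 133 in Lean 24 to 816 in Lean 21. CTRL 31 and CTRL 70 lay within each treated range, and the low end of CTRL was again CTRL 17 and CTRL 44.

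LCN2 again had CTRL 17 and CTRL 44 at the bottom. It stood at 4.56 in CTRL 17 (5 reads), 5152 in CTRL 31, 253 in CTRL 44 and 4178 in CTRL 70. In Chemo it was 4746 in Chemo 19, 5631 in Chemo 30, 4837 in Chemo 33, 6465 in Chemo 34 and 7099 in Chemo 67. In MC it was 1055 in MC 6, 3639 in MC 41, 3589 in MC 42, 4305 in MC 48 and 4314 in MC 59. Every Chemo tumor was above every MC tumor, while both groups overlapped CTRL. MC + Chemo ran from 4155 to 10379.6 with a median of 6772, and Lean from 608 in Lean 24 to 4924 in Lean 54.

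**Figure D1:**
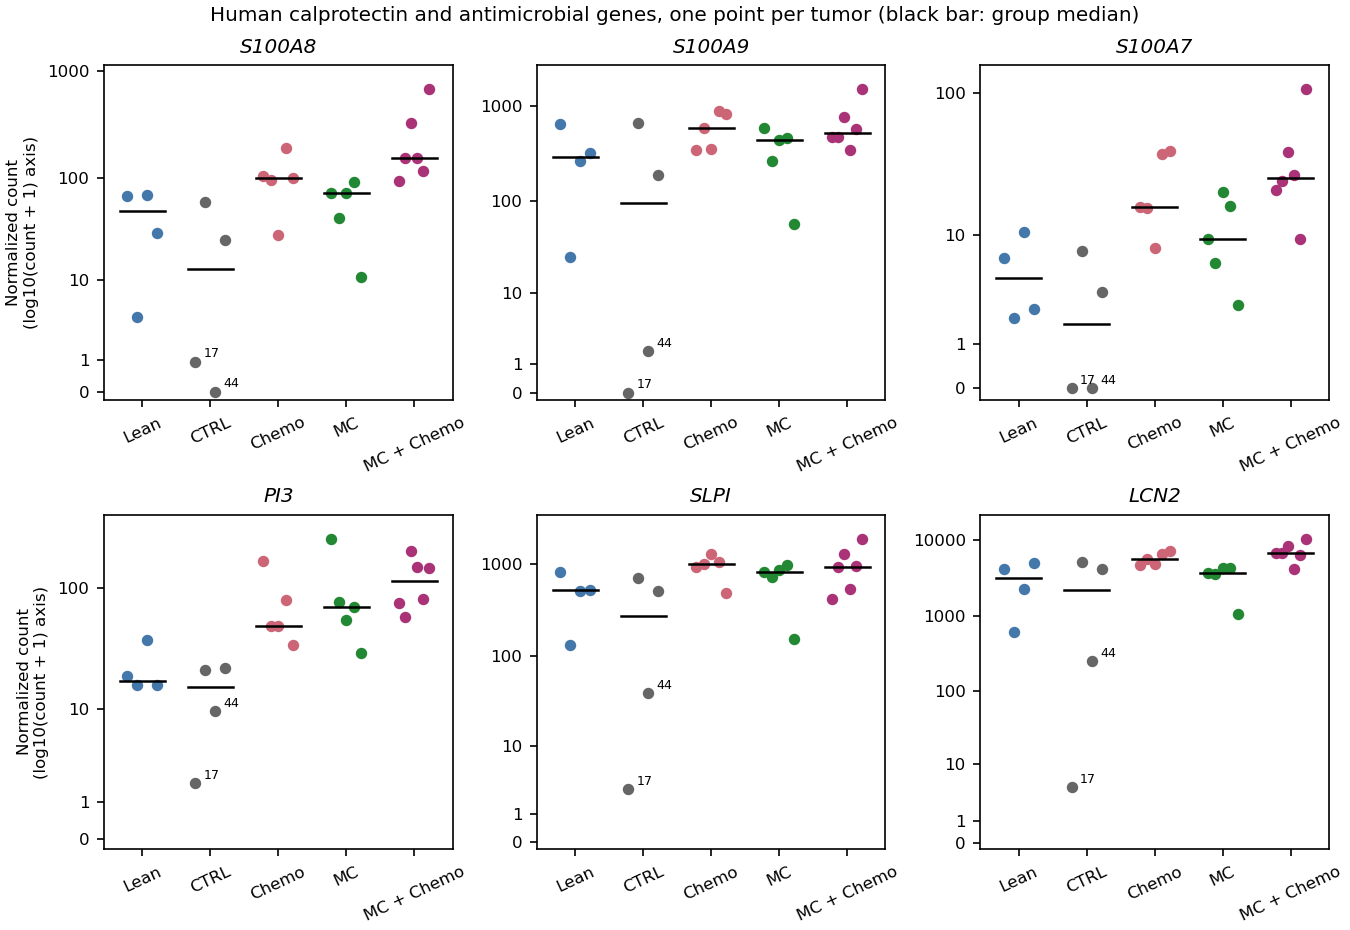
Normalized counts of the 6 human genes in 24 tumors, on a log10(count + 1) axis, with tumors grouped on the horizontal axis, 1 point per tumor and a black bar at the group median. CTRL 17 and CTRL 44 (numbered) are the lowest 2 points of every panel, and PI3 in Chemo, MC and MC + Chemo lies wholly above CTRL.

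Ordered by median, CTRL was lowest and Lean second lowest for 6 of 6 genes. MC + Chemo had the highest median for S100A8, S100A7, PI3 and LCN2, and Chemo for S100A9 and SLPI. Of all neighbouring groups in these orders, MC and Chemo for LCN2 were the only ones whose ranges did not overlap. Single tumors kept their place across genes: MC + Chemo 52 was highest for 5 of the 6, MC + Chemo 47 was among the highest 3 for 5 of the 6, and Lean 24 was among the lowest 4 for 6 of 6. The map of ranks shows these tumors as columns of nearly even shade.

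**Figure D2:**
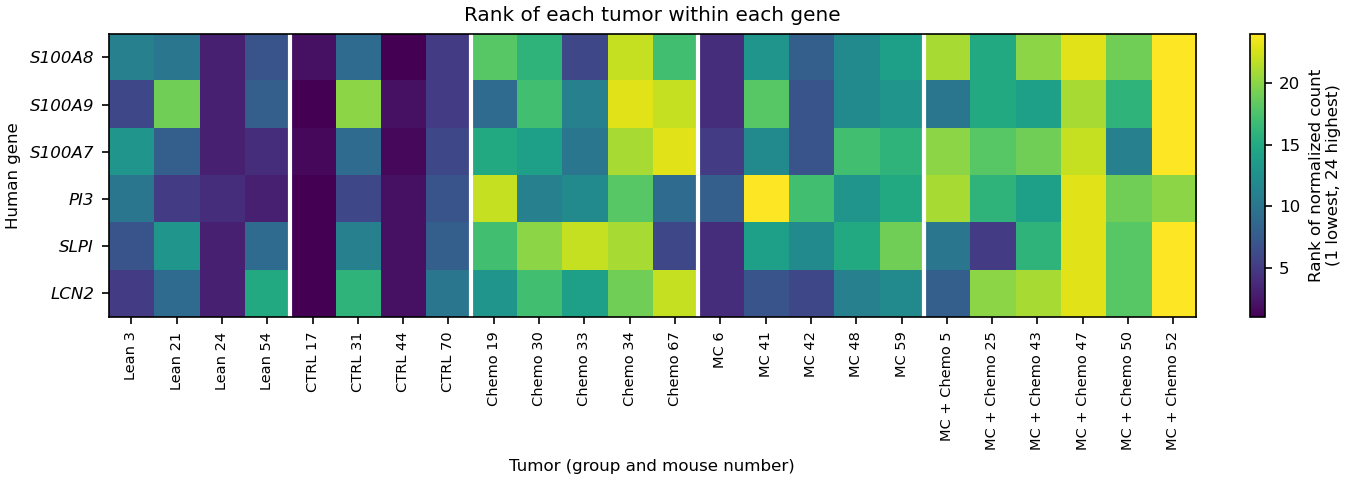
Rank of each of the 24 tumors (columns, by group and mouse number) within each human gene (rows), from 1 for the lowest normalized count to 24 for the highest. CTRL 17, CTRL 44 and Lean 24 are dark in every row, and MC + Chemo 52 is brightest in all rows but PI3.

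Chemo against CTRL asks whether chemotherapy alone moved these genes in obese mice. All 6 had a higher fitted level in Chemo, and edgeR called 0 of them, beside 0% of the 16434 genes tested. PI3 had a log2 fold change of 2.42 (SE 0.67, adjusted p = 0.0992), S100A7 of 3.09 (SE 0.88, adjusted p = 0.101) and S100A8 of 2.30 (SE 0.89, adjusted p = 0.189). These 3 passed an unadjusted p of 0.05, as did 2965 of the 16434 genes tested (18%). S100A9 (1.49, SE 0.97), SLPI (1.57, SE 0.82) and LCN2 (1.25, SE 0.87) did not. DESeq2 called PI3 (adjusted p = 0.00825), beside 2.21% of the genes it tested. In 2 of the 6 genes, S100A7 and PI3, every Chemo tumor was above every CTRL tumor, which held for 1.92% of all genes tested.

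The same CTRL tumors were in view when the set was drawn up, so the comparisons with CTRL are not independent of that choice. In exact permutation tests of the mean log2 level, two-sided and not adjusted over the 36 such tests made, p was 0.00794 for S100A7 and PI3, the smallest value that 5 against 4 tumors allow. It was 0.0238 for S100A8, SLPI and LCN2 and 0.0397 for S100A9. Without CTRL 17 and CTRL 44, 0 of the 6 passed 0.05 in the exact permutation test, the smallest p being 0.0952 for S100A7 and PI3 where 5 against 2 tumors allow 0.0476. The log2 fold change was then 0.29 for LCN2 (SE 0.38), 0.49 for S100A9 (SE 0.72) and 0.62 for SLPI (SE 0.59). It was 1.31 for S100A8 (SE 0.87), 1.75 for PI3 (SE 0.80) and 2.13 for S100A7 (SE 0.94), each lower than with all CTRL tumors. Leaving out CTRL 31 instead gave 2 called genes, S100A8 (3.43, SE 1.01, adjusted p = 0.0461) and PI3 (2.68, SE 0.77, adjusted p = 0.0404), beside 6.69% of all genes tested.

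MC against CTRL asks the same of moringa concentrate alone, against the same CTRL tumors. edgeR called 0 of the 6 genes and 0% of all genes, with PI3 and S100A7 at an unadjusted p below 0.05, as were 10.6% of all genes. PI3 had the highest fold change of the 6, at 2.78 on the log2 scale (SE 0.68, adjusted p = 0.423), and without MC 41, the tumor highest in PI3, it was 2.07 (SE 0.59, adjusted p = 0.598). DESeq2 called it (adjusted p = 0.0140), beside 0.0477% of the genes it tested. PI3 was also the single gene of the 6 whose MC and CTRL tumors did not overlap, beside 0.748% of all genes, and the single gene with an exact permutation p below 0.05 (0.0159). PI3 was chosen on a contrast with these CTRL tumors, so neither value is independent of its choice. With MC + Chemo 5 read as MC, the exact permutation p was 0.00476 for PI3 and 0.0429 for S100A7 and SLPI. It was above 0.05 for S100A8, S100A9 and LCN2. The fold changes of S100A8 (1.45, SE 0.88), S100A7 (1.99, SE 0.90), SLPI (1.15, SE 0.81), S100A9 (0.77, SE 0.96) and LCN2 (0.49, SE 0.85) did not pass after adjustment either. Without CTRL 17 and CTRL 44, PI3 was at 2.12 (SE 0.80, adjusted p = 0.946), and S100A9 at -0.23 (SE 0.70) and LCN2 at -0.47 (SE 0.37) stood on the other side of 0.

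Lean against CTRL asks whether tumors of untreated mice differed with diet. None of the 6 genes was called by edgeR or DESeq2 or passed an unadjusted p of 0.05, beside 0% of 16588 genes called by edgeR. In 0 of the 6 did every Lean tumor lie above every CTRL tumor, beside 1.13% of all genes. Fold changes ran from 0.31 for LCN2 (SE 0.90) to 1.03 for S100A8 (SE 0.95) on the log2 scale. Exact permutation p-values ran from 0.200 to 0.400, where 4 against 4 tumors allow 0.0286. Without CTRL 17 and CTRL 44 the 6 values ran from -0.64 for LCN2 to 0.06 for S100A7.

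MC + Chemo against CTRL is the contrast in view when the set was drawn up, and its values are given as a description. The log2 fold change was 3.59 for S100A8, 1.69 for S100A9, 3.78 for S100A7, 3.06 for PI3, 1.64 for SLPI and 1.56 for LCN2. MC + Chemo tumors did not overlap CTRL tumors for 3 of the 6 (S100A8, S100A7 and PI3), beside 2.65% of all genes. Without CTRL 17 and CTRL 44 the fold changes were 2.61 for S100A8, 2.81 for S100A7 and 2.40 for PI3, and 0.69, 0.69 and 0.60 for S100A9, SLPI and LCN2. The plot of fold changes shows this division in Chemo and MC + Chemo alike: without the pair, S100A8, S100A7 and PI3 stayed further from 0 than S100A9, SLPI and LCN2.

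**Figure D3:**
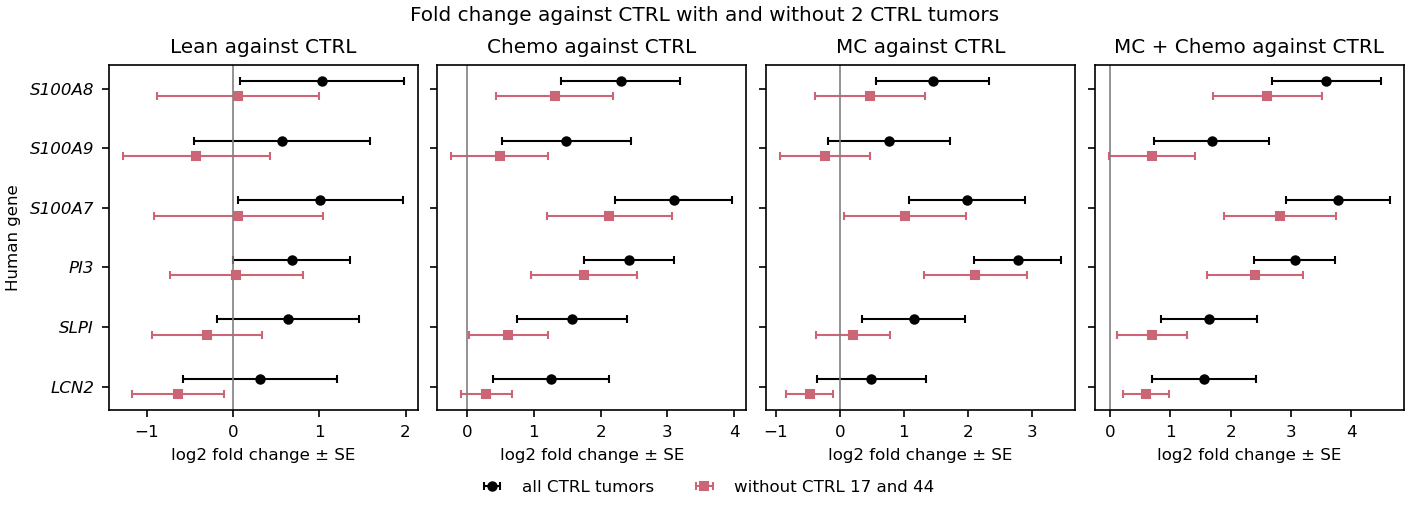
Log2 fold change against CTRL (horizontal axis, edgeR, bars are SE) of the 6 human genes in Lean, Chemo, MC and MC + Chemo, with all 4 CTRL tumors (black circles) and without CTRL 17 and CTRL 44 (red squares). Every value moved down without the pair, and in MC the values of S100A9 and LCN2 went from 0.77 and 0.49 to -0.23 and -0.47.

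Fold changes between treated groups compare no CTRL tumors, but their edgeR SE and p-values rest on a spread estimated with the CTRL tumors included. With the 2 groups of a comparison fitted alone, 0 of the 6 genes were called in each. The lowest edgeR adjusted p of any gene was then 0.0984 for MC + Chemo against Chemo. It was 0.101 for MC + Chemo against MC and 0.0512 for Chemo against MC. Fitted with CTRL, these were 0.250, 0.606 and 0.833. MC + Chemo against Chemo asks what moringa concentrate added to chemotherapy, and edgeR and DESeq2 called 0 of the 6 genes, with 0 at an unadjusted p below 0.05 and 0% of all genes called by edgeR. S100A8 had the largest fold change, 1.29 on the log2 scale (SE 0.72, adjusted p = 0.552), and the others lay between 0.07 for SLPI (SE 0.70) and 0.68 for S100A7 (SE 0.63). In 0 of the 6 was every MC + Chemo tumor above every Chemo tumor, beside 0.432% of all genes. Exact permutation p-values ran from 0.110 for S100A8 to 0.911 for SLPI.

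MC + Chemo against MC asks what chemotherapy added to moringa concentrate. Both tools called 0 of the 6, beside 0% of all genes by edgeR, and S100A8 (log2 fold change 2.14, SE 0.76) and S100A7 (1.79, SE 0.68) passed an unadjusted p of 0.05, as did 7.91% of all genes, each with an adjusted p of 0.606. S100A8 was the single gene of the 6 whose tumors did not overlap, beside 0.815% of all genes. The margin was narrow, 92.7 in MC + Chemo 25 against 91.4 in MC 59. With MC + Chemo 5 read as MC, its S100A8 of 152 exceeded the 92.7 of MC + Chemo 25, and the groups overlapped. Exact permutation p-values were 0.00433 for S100A8, 0.00866 for LCN2 and 0.0346 for S100A7. They were above 0.05 for S100A9 (0.0823), PI3 (0.353) and SLPI (0.394). With MC + Chemo 5 read as MC, the exact permutation p was 0.0260 for S100A8, 0.0433 for S100A9 and 0.00216 for LCN2. It was then 0.0931 for S100A7, and also above 0.05 for PI3 and SLPI. With groups by title, MC + Chemo 52 carried part of the difference from MC. Without MC + Chemo 52 the log2 fold change of S100A8 was 1.53 (SE 0.73) and that of S100A7 1.11 (SE 0.63). The MC + Chemo tumors are those in view when the set was drawn up, so these values are not independent of that choice.

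Chemo against MC sets the single treatments side by side. Again 0 of the 6 were called by either tool, 0 passed an unadjusted p of 0.05, and 0% of all genes were called by edgeR. LCN2 was the single gene of the 6 with every Chemo tumor above every MC tumor, beside 0.815% of all genes, with a log2 fold change of 0.76 (SE 0.80, adjusted p = 0.971) and an exact permutation p of 0.00794, the smallest possible. PI3 was the single gene with a lower fitted level in Chemo, at -0.36 (SE 0.56), and without MC 41 its value was 0.35 (SE 0.51). The other 4 lay between 0.42 for SLPI (SE 0.74) and 1.10 for S100A7 (SE 0.70).

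The balance of the calprotectin subunits also varied between tumors. Reads of S100A9 per read of S100A8, taken where both genes had at least 10 reads, ran from 2.21 in MC + Chemo 52 to 12.6 in Chemo 33, with a median of 5.61 over 20 tumors. The median was 2.73 in MC + Chemo (6 tumors), 6.14 in Chemo (5), 6.29 in MC (4), 9.55 in Lean (3) and 9.41 in CTRL (2). Thus the MC + Chemo tumors had the lowest median of S100A9 relative to S100A8. Their range of 2.21 to 5.10 overlapped that of Chemo (3.34 to 12.6) and, by a narrow margin, of MC (5.06 to 8.20). Lean 3, at 3.86, also lay inside the MC + Chemo range. S100A8 was among the genes called different between MC + Chemo and CTRL when the set was drawn up. The low ratio in MC + Chemo is therefore not independent of that choice. Reads of LCN2 per read of SLPI ran from 3.77 in Chemo 33 to 15.8 in MC + Chemo 25, with group medians between 4.84 and 7.19.

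Across the 24 tumors the genes varied together. The Pearson r of the log2 levels of LCN2 and SLPI was 0.964 over all tumors and 0.830 without CTRL 17 and CTRL 44. For S100A9 and LCN2 it was 0.945 and 0.928, the highest of all pairs without those tumors. For S100A8 and S100A9 the values were 0.924 and 0.878, and for S100A8 and S100A7 0.940 and 0.906. PI3 was the loosest member of the set, with r of 0.440 to 0.677 against the other 5 without that pair. These correlations describe tumors that share treatment groups and are not tests. By the annotation of GRCh38.p14, S100A12 is the protein-coding gene between S100A8 and S100A9, S100A7A lies between S100A8 and S100A7, and SEMG1 and SEMG2 lie between PI3 and SLPI, while LCN2 is on another chromosome than the rest.

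The genes most like S100A8 in pattern, by Pearson r of log2 levels with group means removed over 24 tumors and 11237 genes searched, were IFIT3 (r = 0.947), IFIT1 (0.940) and PHLDA3 (0.935). IFIT3 and IFIT1 are interferon-induced genes that restrict viral RNA, and PHLDA3 is a p53 target. IFIT3 read 809 in CTRL 17 and 678 in CTRL 44, against 1047 to 5238 in the others. Without this pair, with group means again removed, r was 0.900 for IFIT3, 0.880 for IFIT1 and 0.920 for PHLDA3. PI3 had weaker likenesses, with PCBD1 (0.742), RHOD (0.735) and B3GALNT1 (0.732) at the top, and by the same measure 0.628, 0.550 and 0.593 without the pair.

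Markers of stratified epithelium moved with the 6 genes. Of 39 such markers listed, 26 were in the table. CTRL 17 and CTRL 44 were the lowest 2 tumors for 19 of them, beside 10.4% of the 12673 human genes with a mean normalized count over 30. Their normalized counts summed to 14291 in CTRL 17, 23562 in CTRL 44, 32505 in Lean 24, 45132 in MC 6 and, at the top, 114164 in MC + Chemo 52. This sum is weighted to its highest gene, KRT81, with a median normalized count of 32266, the next being DSP at 9517. EPCAM, an epithelial adhesion protein, read 73.8 and 552 in the pair against 1207 to 5399 in the others, and CLDN4, a tight-junction protein, read 859 and 1503 against 2914 to 10399.8. The tumors lowest in LCN2, SLPI and calprotectin were therefore also lowest in epithelial markers, and the part of this in the comparisons with CTRL was not tested beyond leaving the pair out. In the plot of LCN2 against these markers, CTRL 17, CTRL 44, Lean 24 and MC 6 lie in that order of rising LCN2, CDH1 and list sum.

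**Figure D4:**
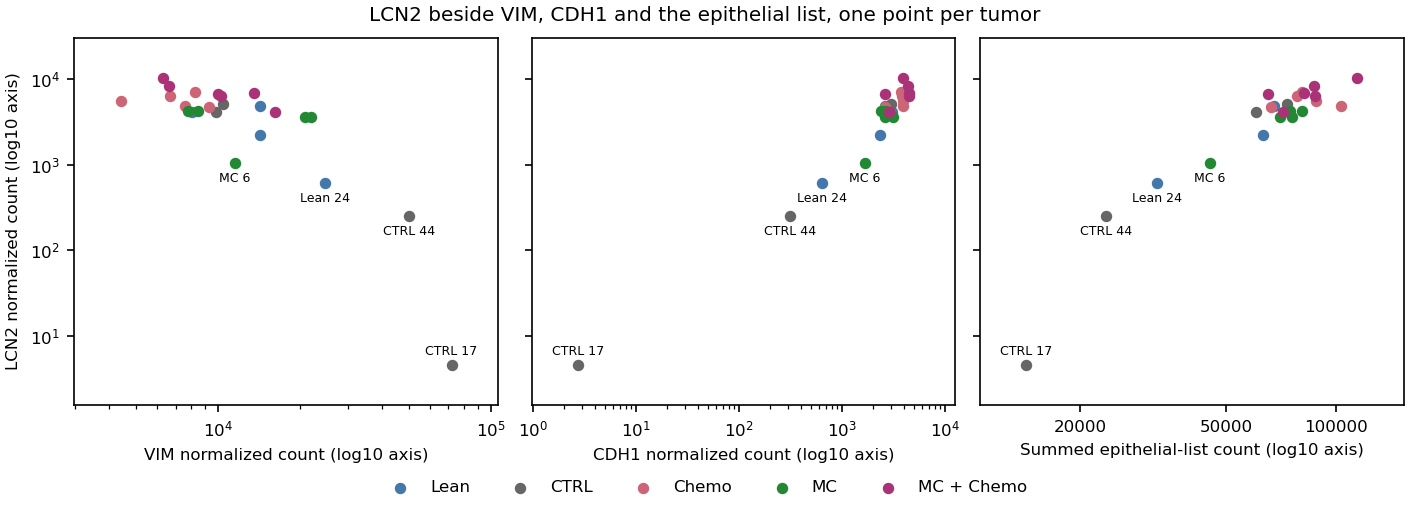
LCN2 normalized count (vertical log10 axis) against the normalized counts of VIM and CDH1 and the summed count of 26 epithelial markers (horizontal log10 axes) in 24 tumors, coloured by group. CTRL 17 lies at the low end of LCN2 (4.56), CDH1 (2.73) and the list sum (14291) and at the high end of VIM (71918). The list sum is weighted to its highest gene, KRT81.

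In Chemo against CTRL, 23 of 25 tested epithelial markers had a higher fitted level, and the median over the list was 1.01 on the log2 scale beside -0.02 over all genes. None was called by edgeR, and 10 passed an unadjusted p of 0.05, all higher, where 18% of all genes did so in either direction. KRT13, a keratin of mucosal epithelium, ran from 0.911 to 71.5 in CTRL and from 90.3 to 207 in Chemo (2.28, SE 0.63, adjusted p = 0.0992), and KRT80 had a log2 fold change of 0.80 (SE 0.26, adjusted p = 0.129). VIM, listed with the cell line's markers, ran from 9838 to 71918 in CTRL and from 4402 to 9267 in Chemo (-2.31, SE 0.51, adjusted p = 0.0857), and AXL, a receptor kinase of mesenchymal cells, had -0.94 (SE 0.29, adjusted p = 0.117). Of the 14 genes tested from the cell line's list, 8 were higher and 6 lower, with a median of 0.08. At an unadjusted p below 0.05, 5 were higher and 3 lower. This list joins VIM and AXL with KRT8, KRT18 and KRT19 and with ESR1, ERBB2 and GATA3, not all expected to be high in this line. Its counts and median therefore do not measure a gain or loss of the line's profile.

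Other secreted defence genes were listed beside the 6, and their counts at an unadjusted p below 0.05 here and in the next lists stand against 18% of all genes. Of 11 tested antimicrobial genes, 8 were higher in Chemo than in CTRL and the median was 1.07 on the log2 scale. edgeR called 0 of them, and 4 were higher and 2 lower at an unadjusted p below 0.05. DUOX2, an epithelial producer of hydrogen peroxide, was at 1.39 (SE 0.40, adjusted p = 0.103) and RNASE4, a secreted ribonuclease, at -1.73 (SE 0.54, adjusted p = 0.119). Of 15 antiproteases, 12 were higher (median 0.49, 0 called, 4 at an unadjusted p below 0.05), led by CST6, a secreted cystatin, at 1.52 (SE 0.50, adjusted p = 0.139) and A2ML1 at 2.11 (SE 0.80, adjusted p = 0.177). In the rest of the S100 family 8 of 13 were higher with a median of 0.11, 0 called and 3 higher and 1 lower at an unadjusted p below 0.05, S100A2 being at 0.87 (SE 0.37) and S100A11 at 0.37 (SE 0.16).

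Genes around the pathway were described by list. Among 34 upstream cytokines, receptors and transcription factors, 29 were higher in Chemo than in CTRL (median 0.37, 0 called, 10 higher and 1 lower at an unadjusted p below 0.05), with IL36RN, an antagonist of interleukin 36, at 1.71 (SE 0.49, adjusted p = 0.102). Among 18 acute-phase and chemokine genes often induced with LCN2, 17 were higher (median 0.56, 0 called, 6 at an unadjusted p below 0.05), with ICAM1 at 0.90 (SE 0.29, adjusted p = 0.132) and CFB, complement factor B, at 1.38 (SE 0.54, adjusted p = 0.195). Among 14 receptors and partners, 10 were higher (median 0.26, 0 called, 2 at an unadjusted p below 0.05), with PLSCR1 at 0.88 (SE 0.38) and NPTN, a calprotectin receptor, at 0.31 (SE 0.14). In MC + Chemo against CTRL, whose values are a description, 1 gene of each of these 3 lists was past the thresholds for a call, as were 1.53% of all genes. These were CEBPB, a transcription factor of acute-phase genes (0.75, SE 0.18), SOD2, the mitochondrial superoxide dismutase (0.86, SE 0.19), and BSG, a receptor for S100A9 (0.73, SE 0.15), all higher.

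Human leukocytes were not part of the injected cells. Of 16 human leukocyte markers, 9 were in the human table, and among those that were not were CSF3R, ITGAM, MPO, CD163, CD3E and CXCR2, where genes with fewer than 72 reads over the 24 tumors are not listed. The summed normalized count of the 9 ran from 504 to 1299 in CTRL, 553 to 1344 in Chemo, 618 to 1088 in MC, 640 to 1697 in MC + Chemo and 788 to 1266 in Lean. In Chemo against CTRL, 3 of 8 were higher (median -0.04), with ITGB2 at -0.85 (SE 0.45) and CD14 at 1.07 (SE 0.62), 0 called by edgeR and 0 at an unadjusted p below 0.05. How reads that match both genomes were assigned is not given in the sources used here, and the share of murine reads among these was not tested.

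Mice carry their own S100a8, S100a9, Slpi and Lcn2. All 4 were in the murine table, and S100a7a was not. CTRL 44 had 216 murine S100a8 reads and 0 human S100A8 reads, so that 3 human reads would be 1.39% of the murine count. CTRL 17 had 79 murine S100a9 reads and 0 human ones, and 157 murine Lcn2 reads beside 5 human ones. In the other direction, Chemo 30 had 4 murine Lcn2 reads beside 5029 human ones, or 0.0795%. The tumors highest in one species were not those highest in the other. MC + Chemo 52, with 1000 human S100A8 reads, had 333 murine S100a8 reads. Chemo 33, with 3710 murine S100a8 reads, had 25 human ones. At the low end, CTRL 17 and CTRL 44 were the lowest 2 tumors for murine S100a8 as well, at normalized counts of 64.3 and 277. For murine S100a9, CTRL 17 was lowest at 75.9, and CTRL 44 stood at 377, above MC + Chemo 52 at 263. Murine Lcn2 went the other way in CTRL 17, which was highest at 151.

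**Figure D5:**
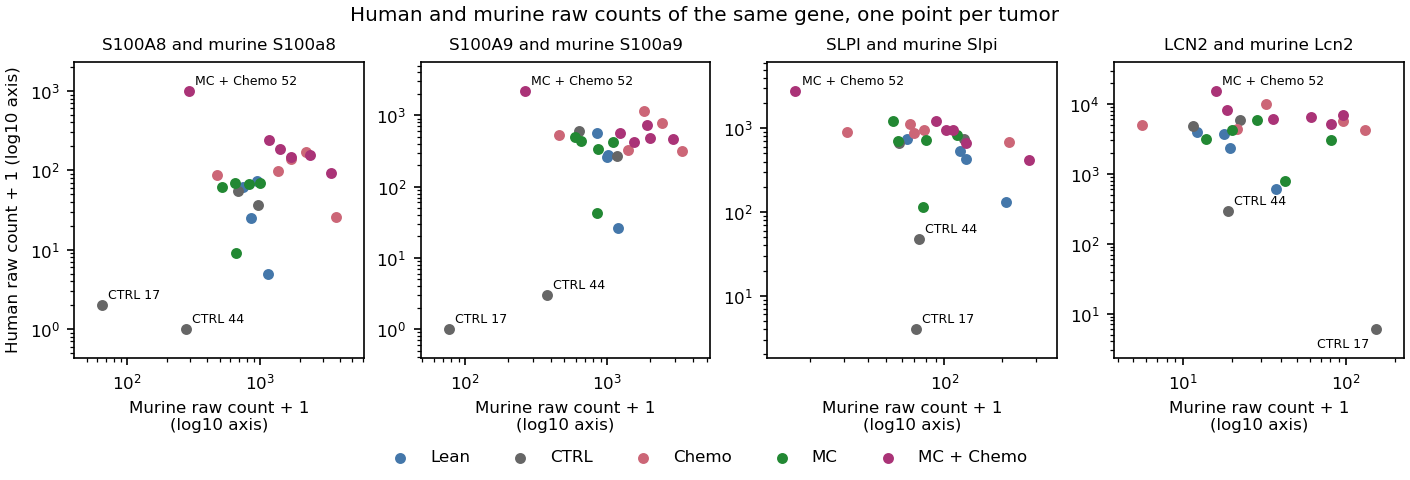
Human raw read count plus 1 (vertical log10 axis) against the murine normalized count plus 1 of the same gene (horizontal log10 axis). The genes are S100A8, S100A9, SLPI and LCN2 in 24 tumors, coloured by group. The title and horizontal axis label say raw, but the murine values drawn are normalized counts, so the axes differ in scale. CTRL 44 has a murine S100a8 normalized count of 277 with 0 human S100A8 reads. MC + Chemo 52 has the highest human count of each gene beside a murine S100a8 normalized count of 293.

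By median, host calprotectin had the group order of human S100A9, except that Lean and MC were exchanged. The median normalized count of murine S100a8 was 481 in CTRL, 668 in MC, 912 in Lean, 1573 in MC + Chemo and 1735 in Chemo, and that of S100a9 was 504, 840, 1001, 1721 and 1804 in the same order. The ranges overlapped, with S100a8 at 64.3 to 968 in CTRL and 479 to 3742 in Chemo. Of 22 murine neutrophil markers, which include S100a8 and S100a9, 20 were in the table, and their sum ran from 1600 to 3490 in CTRL, 1832 to 10261 in Chemo, 2015 to 3241 in MC, 2905 to 8327 in MC + Chemo and 2528 to 3831 in Lean. Over the 24 tumors S100a8 and S100a9 had medians of 965 and 1054, and the next of these markers was Itgam at 309. The sum is thus weighted to calprotectin and is not a separate measure of neutrophils. Murine Slpi and Lcn2 were low, with group medians of 68.4 to 124 and 17.7 to 47.3.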

How the data were processed

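The deposited tables hold the authors' raw read counts per gene (QuantSeq 3′ libraries, 50-base forward reads, aligned with BlueBee software) and, as signal, the authors' normalized counts, which are the same counts divided by DESeq2 size factors, in 1 human and 1 murine table. Per the labels' processing notes DESeq2 was 1.22.2 and the murine build GRCm38; the human build is not given in the sources used here. The RNA of 3 libraries had an extra cleanup. Counts were fitted with edgeR 4.0.16 (R 4.3.3, limma 3.58.1; TMM scaling, filterByExpr, robust quasi-likelihood F test, Benjamini-Hochberg adjustment over all genes tested) on the 20 high-fat libraries, or on 24 for Lean. SE is the log2 fold change divided by the square root of F. Exact permutation tests, correlations and likeness used log2(normalized count + 1). Alternatives were DESeq2 1.42.0, other scalings and filters, other library sets and a pseudocount of 5. On data simulated for Chemo against CTRL, edgeR found 61 of 100 genes changed 2-fold and 95 of 100 changed 4-fold, with 12 false calls. The changed genes were picked at random, and all tumors shared a common mean per gene before the change. The simulation thus held no split CTRL group, and its rates cannot be read as the power for the 6 genes. The 6 genes and all lists were chosen with earlier results of these data known. From each list the text names the called genes or, with 0 called, the 2 of lowest unadjusted p in Chemo against CTRL, and for S100A8 and PI3 the 3 genes most alike in pattern. Some genes of these lists are not reported here. CDH1, EPCAM and CLDN4 were named after their values were seen. RefSeq matched 6 of 6 symbols.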

Additional observations from a re-analysis of the deposited data

Results flagged for a closer look

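In 30 sets of a gene in a group of 4 to 6 tumors, 5 had a highest or lowest tumor far from the rest by Dixon's criterion. Its rate of about 1 in 20 holds for independent sets of normally distributed values. These counts were not log-transformed and the genes varied together, so the 5 cannot be judged against that rate. MC + Chemo 52 was far above the other MC + Chemo tumors for S100A9 (1487, the next being 760.5) and for S100A7 (106, the next being 39.5). MC 41 was far above the other MC tumors for PI3 (251, the next being 77.7). Lean 3 was far above the other Lean tumors for PI3 (38.2, the next being 18.96). MC 6 was far below the other MC tumors for LCN2 (1055, the next being 3589). CTRL 17 and CTRL 44 were not picked out in this way, because they were low together.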

How the results depend on the processing

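The count of called genes among the 6 was 0 in each of the 6 comparisons tested and stayed 0 under every alternative run but 3. DESeq2 gave 1 in Chemo against CTRL and 1 in MC against CTRL (PI3 in both), and leaving out single tumors gave 0 to 2 in Chemo against CTRL, the 2 without CTRL 31. No paired analysis was possible because the mouse numbers are not shared between groups. The promoter motif search was not run. Some fold changes turned in direction, and the cause was not tested. Without CTRL 17 and CTRL 44 the fitted log2 fold change was -0.23 for S100A9 and -0.47 for LCN2 in MC against CTRL, and -0.43 for S100A9, -0.31 for SLPI and -0.64 for LCN2 in Lean against CTRL. The mean log2 differences without that pair were -0.32 for S100A9, -0.014 for SLPI and -0.61 for LCN2 in MC against CTRL, and -0.44 for S100A8, -0.87 for S100A9, -0.17 for S100A7, -0.079 for PI3, -0.55 for SLPI and -1.01 for LCN2 in Lean against CTRL. With library totals as the sole scaling, SLPI was at -0.048 in MC + Chemo against Chemo, and with MC + Chemo 5 as MC its mean log2 difference was 0.11. PI3 in Chemo against MC was at 0.53 without Lean 3, MC 41 and MC 42. Leaving out 1 tumor at a time gave ranges of -0.20 to 0.38 for S100A9 and -0.22 to 0.21 for SLPI in MC + Chemo against Chemo, -0.86 to 0.35 for PI3 in Chemo against MC, and -0.055 to 2.24 for S100A9 and -0.10 to 1.01 for LCN2 in Lean against CTRL. With so few CTRL tumors, depth limits S100A7 most, at 0 to 7 reads in CTRL.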
